A study of Homo sapiens with 6 samples.

Results

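The expressed processed pseudogenes of LoVo cells were selected on their counts, as genes with the biotype processed_pseudogene that had at least 30 counts in at least 3 of the 6 libraries. The rule kept 224 of the 10191 processed pseudogenes in the gene table, which lists 58735 genes in all, and 6798 processed pseudogenes had 0 counts in every library. Each was set beside its parent gene, found by taking the final P and number off the symbol. This gave 154 pairs with 124 parents, while 60 pseudogenes carried a clone-based name, 8 another name, and 2 a parent name that the table does not list.

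LoVo is an established human colorectal cancer cell line. Cells were transfected with a negative control siRNA (si‐NC, 3 libraries) or with one that targets SRSF11, a serine/arginine-rich splicing factor (si‐SRSF11, 3 libraries), and the labels name no other allele or agent for either group. The sources used here do not name which SRSF11 siRNA was transfected, and while the study calls its RNA samples independent, neither it nor the labels say that the 3 libraries of a group came from separate cultures, so p-values measure the spread between these libraries, which may be technical. Polyadenylated RNA was read as 150 bp pairs, and counts per library added up to between 14369525 and 16685719. SRSF11 itself had 1271, 1281 and 1363 counts in si‐NC and 789, 789 and 807 in si‐SRSF11, and its log2 fold change was -0.81 (standard error, SE, 0.054, adjusted p = 6.1e-10, edgeR's quasi-likelihood test). The epithelial markers EPCAM, KRT8, KRT18, CDH1, VIL1 and CDX2 were present in each library, KRT20 had 6 to 20 counts, PTPRC had 0, COL3A1 0 or 1, PECAM1 6 to 21 and COL1A1 179 to 206.

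A processed pseudogene arises when the messenger RNA of a gene is copied into DNA and inserted elsewhere in the genome. The copy therefore lacks introns and usually also the promoter of its parent, and genes with abundant messengers, such as those for ribosomal proteins, have left many copies. Most copies have gathered stop codons or shifts of the reading frame, although some are transcribed from neighbouring promoters. Because a copy and its parent can be nearly identical, a short read may fit both, and the count given to each then depends on how such reads are assigned.

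Stretches of 90 bases of the coding sequence are printed here 5′ to 3′ for 4 parents whose copies changed, from the annotated transcripts of GENCODE 29 (GRCh38). Each was picked as the stretch with the most differences, so it shows less likeness than the whole coding sequence. Where 2 copies are shown, the copy with fewer differences decided the choice of stretch. In each, capitals in a pseudogene mark bases that differ from the parent, and capitals in the parent mark positions where a copy shown with it differs. RPSA encodes a protein of the small ribosomal subunit, and 2 of its copies differ from it here at 2 and 3 positions of coding bases 103 to 192.
RPSA: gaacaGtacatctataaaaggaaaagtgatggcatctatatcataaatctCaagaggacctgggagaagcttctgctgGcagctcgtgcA
RPSAP58: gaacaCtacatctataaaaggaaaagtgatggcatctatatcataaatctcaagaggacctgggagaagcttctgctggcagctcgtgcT
RPSAP15: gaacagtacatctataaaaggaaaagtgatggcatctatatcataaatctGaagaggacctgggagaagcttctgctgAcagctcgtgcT
YBX1 encodes an RNA- and DNA-binding cold shock protein, and its copies differ from coding bases 67 to 156 at 3 and 6 positions.
YBX1: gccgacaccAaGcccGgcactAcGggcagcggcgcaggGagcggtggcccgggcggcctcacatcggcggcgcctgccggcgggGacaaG
YBX1P1: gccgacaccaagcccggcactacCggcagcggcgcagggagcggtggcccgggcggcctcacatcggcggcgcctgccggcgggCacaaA
YBX1P10: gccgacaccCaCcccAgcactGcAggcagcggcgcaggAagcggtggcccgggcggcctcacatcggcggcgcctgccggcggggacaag
HSPD1 encodes the mitochondrial chaperonin HSP60, and its copy differs at 6 positions of coding bases 1127 to 1216.
HSPD1: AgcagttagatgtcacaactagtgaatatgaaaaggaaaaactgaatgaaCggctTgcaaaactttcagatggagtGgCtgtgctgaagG
HSPD1P1: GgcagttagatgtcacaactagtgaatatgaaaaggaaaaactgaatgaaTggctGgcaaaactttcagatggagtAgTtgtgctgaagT
EIF4B encodes a factor that helps unwind messengers at the start of translation, and its copy differs at 5 positions of coding bases 1573 to 1662.
EIF4B: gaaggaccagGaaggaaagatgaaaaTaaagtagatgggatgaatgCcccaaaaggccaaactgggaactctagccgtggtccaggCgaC
EIF4BP3: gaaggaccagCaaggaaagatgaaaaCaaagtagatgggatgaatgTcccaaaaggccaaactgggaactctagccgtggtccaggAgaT

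Over the whole coding sequence of the parent, RPSAP58 differed from RPSA at 4 of 888 aligned bases and shared an identical run of 353 bases with it, which is longer than a 150 bp read. RPSAP15 differed at 16 of 861 aligned bases, with a longest identical run of 181 bases. YBX1P1 differed from YBX1 at 14 of 957 aligned bases, with a longest identical run of 288 bases, and YBX1P10 at 24 of 974, with a longest run of 108 bases. HSPD1P1 differed from HSPD1 at 41 of 1720 aligned bases and EIF4BP3 from EIF4B at 35 of 1848, with longest identical runs of 150 and 183 bases.

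After SRSF11 knockdown, 40 of the 224 pseudogenes rose and 10 fell at an adjusted p under 0.05 (edgeR's quasi-likelihood test, Benjamini-Hochberg over 15801 tested genes), and 174 did not pass the test. Of the 40 that rose, 23 best matched a ribosomal protein gene, among them RPS7P10, RPSAP47 and RPL7AP6, and so did 70 of all 224. The 40 rises lay between 0.15 and 0.96 on the log2 scale, with a median of 0.49. All 224 passed the filter of 10 counts in 3 libraries that preceded the fit. The 17.9% that rose stood beside 13.2% of all tested genes and 15.3% of the 13173 genes of any type under the same count rule. The 4.46% that fell stood beside 11.4% of all tested genes and 13.1% of the genes under the same count rule. The share of rises was thus close to the background and the share of falls below it. The median log2 fold change of the 224 was 0.12, and that of all tested genes was 0.00. In such bulk RNA, fewer cells with a transcript and less of it per cell cannot be told apart.

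Without overlap between the groups in CPM (counts per 1000000 counts, scaled by the trimmed mean of M-values), 54 pseudogenes were higher and 20 lower in si‐SRSF11, beside 20.0% of all tested genes that were higher and 18.9% that were lower. DESeq2 called 25 higher and 6 lower, where it called 11.0% and 10.5% of all genes to which it gave an adjusted p. Without si‐NC replicate 1, edgeR called 22 higher and 6 lower, with 9.43% and 8.11% of all genes. Both alternatives kept more rises than falls. Counts per pseudogene were low: the median of the 6-library mean was 82.4 counts, 128 pseudogenes had a mean under 100 counts and 20 a mean of 1000 or more.

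A pseudogene could pass the count rule through one group alone, and then its difference is partly fixed by the choice. This applied to 6 of the 224, of which 3 passed only through si‐NC (AC124944.2, AC100821.1 and FAHD2P1, each called lower) and 3 only through si‐SRSF11 (TLK2P1 and HMGB1P1, called higher, and SUMO2P1, not called). The other 218 held 38 that rose and 7 that fell. Just inside the threshold, AC018638.1 had 23, 39 and 42 counts in si‐NC and 20, 21 and 30 in si‐SRSF11, and RPL34P18 had 24, 32 and 18 against 42, 26 and 30. Just outside it, AC104066.1 had 24, 29 and 33 against 26, 34 and 26, and AC122718.1 had 29, 24 and 26 against 32, 35 and 24.

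As a share of all counts, the 224 pseudogenes made up 0.512%, 0.526% and 0.523% of si‐NC replicates 1, 2 and 3, and 0.524%, 0.545% and 0.551% of si‐SRSF11 replicates 1, 2 and 3. The lowest si‐SRSF11 share lay below the highest si‐NC share, so the groups overlapped. Without the 5 pseudogenes with the most counts, the shares were 0.315%, 0.322% and 0.319% in si‐NC and 0.330%, 0.332% and 0.344% in si‐SRSF11, which did not overlap.

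Copies of ribosomal protein genes formed the largest named family, with 47 members. Of these, 13 (27.7%) rose, 2 (4.26%) fell and 32 did not pass the test, with a median log2 fold change of 0.17. Of all tested genes, 13.2% rose and 11.4% fell. Among the 16 copies of translation factor genes, 4 (25.0%) rose and 1 (6.25%) fell, with a median of 0.16. Of the 13 copies of chromatin, high mobility group and other nuclear protein genes, 3 (23.1%) rose, among them HMGB1P1, and 0 fell by edgeR. HMGB1P1 passed the count rule only through si‐SRSF11. Among these 13 there was 1 fall at an unadjusted p under 0.05 and 0 by DESeq2, which called 1 rise. A set of 12 was formed by the symbols of hnRNP and splicing genes and of YBX, LSM and SET genes, and it includes SETP14, SETD8P1 and LSM12P1, whose parents are not known as splicing genes. Of these 12, 2 rose, both copies of YBX1, and 0 fell by edgeR, at an unadjusted p under 0.05 or by DESeq2. DESeq2 called 2 rises as well. The 5 ferritin copies, the 5 copies of respiratory chain and mitochondrial genes, the 3 cytoskeletal, the 3 glycolytic and metabolic and the 3 ubiquitin and proteasome copies held 0 calls in either direction by edgeR or DESeq2, and 2 rises and 2 falls at an unadjusted p under 0.05. The 42 copies of other parents had 3 rises (7.1%), 3 falls (7.1%) and a median of -0.02. TLK2P1 among the rises passed the count rule only through si‐SRSF11, and FAHD2P1 among the falls only through si‐NC. No family was tested against another or against all genes. Families also differed in counts, so a call was not equally within reach in each. Median CPM and median SE were 14.25 and 0.13 for the ribosomal copies, and 3.0 and 0.22 for copies of other parents.

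Sequence placed further pseudogenes beside the ribosomal ones. The best match among protein-coding transcripts was the named parent in 151 of the 154 pairs, and 218 of the 224 pseudogenes had a match at all. By best match, 70 pseudogenes were copies of a ribosomal protein gene, 23 of which had a clone-based name. Of the 70, 23 (32.9%) rose and 2 (2.86%) fell, with a median log2 fold change of 0.19. Of the other 154, 17 (11.0%) rose and 8 (5.19%) fell, with a median of 0.07, so that their rises were near the 13.2% of all tested genes. The 70 and the 154 were not tested against each other. The ribosomal copies by name had higher counts, with a median CPM of 14.25 beside 5.28 for all 224, which puts more changes within reach of a call. Among the 60 with clone-based names 13 (21.7%) rose and 4 (6.67%) fell. AC124944.2 and AC100821.1 among these falls passed the count rule only through si‐NC.

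Of the 10 members with the highest CPM, 4 passed the test. The most abundant was RPS2P5, a copy of the small subunit gene RPS2 in an intron of TAOK3, with 14364, 15721 and 16328 counts in si‐NC and 14688, 20309 and 18045 in si‐SRSF11. The groups overlapped, and the log2 fold change was 0.10 (SE 0.066, adjusted p = 0.28, edgeR's quasi-likelihood test). RPS2P46, RPS28P7, EEF1A1P5, RPL13AP5 and RPL18AP3 likewise overlapped between the groups and did not pass the test, with log2 fold changes between -0.13 and 0.11. RPL7P1 (log2 fold change 0.23), RPL3P4 (0.27) and AL450405.1, whose best match is RPL29 (0.36), rose. AC008038.1, whose best match at 99.2% identity is the elongation factor subunit gene EEF1G and which shares 17.4% of its exon bases with CHCHD3 and MIR3654, fell by 0.20 on the log2 scale (SE 0.050, adjusted p = 0.004).

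The largest rises among members with at least 50 counts on average and no overlap between the groups began with EIF4BP3 (chromosome 9 of GRCh38, 96146007 to 96147856, plus strand), which had 50, 49 and 55 counts in si‐NC and 106, 133 and 71 in si‐SRSF11. Every si‐SRSF11 library lay above every si‐NC library, with replicate 3 the nearest. The log2 fold change was 0.92 (SE 0.20, adjusted p = 0.002, edgeR's quasi-likelihood test), beside 0.16 for EIF4B. The other copies of EIF4B, EIF4BP6 and EIF4BP7, had log2 fold changes of -0.17 and 0.25 and did not pass the test.

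AC016596.1, of only 78 nt and identical to part of RPL41, had 45, 44 and 28 counts in si‐NC and 87, 56 and 65 in si‐SRSF11. The groups did not overlap, and the log2 fold change was 0.74 (SE 0.23, adjusted p = 0.024). The call was lost without si‐NC replicate 3 or without si‐SRSF11 replicate 1. RPS7P10 (chromosome 13, 21628413 to 21629015, minus strand), a copy of another small subunit gene, had 55, 80 and 61 counts in si‐NC and 136, 102 and 105 in si‐SRSF11. Its lowest si‐SRSF11 count was above its highest si‐NC count, with a log2 fold change of 0.72 (SE 0.18, adjusted p = 0.0043). RPS7 had a log2 fold change of 0.06 and the copies RPS7P1 and RPS7P11 had -0.06 and -0.01, none of which passed the test.

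PTMAP4 (chromosome 12, 9239986 to 9240331, minus strand) is a copy of PTMA, which encodes prothymosin alpha, and shares 95.1% of its exon bases with the noncoding gene LINC00987. It had 46, 47 and 49 counts in si‐NC and 81, 84 and 82 in si‐SRSF11. The libraries of each group lay close together and the groups were well apart, with a log2 fold change of 0.71 (SE 0.18, adjusted p = 0.0055), beside 0.41 for PTMA, which also rose. AC007537.1, which best matches PTMA at 96.4% identity, rose by 0.86 on the log2 scale, and PTMAP2 had a log2 fold change of 0.59 (adjusted p = 0.062).

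Both copies of YBX1 rose, as YBX1 did. YBX1P1 (chromosome 14, 66012830 to 66013789, minus strand) had 122, 104 and 145 counts in si‐NC and 209, 221 and 205 in si‐SRSF11, and YBX1P10 (chromosome 9, 35971344 to 35972318, minus strand) had 87, 104 and 102 against 142, 188 and 161. In neither did the groups overlap, and the log2 fold changes were 0.69 (SE 0.12, adjusted p = 0.0003) and 0.65 (SE 0.14, adjusted p = 0.0011). YBX1 rose by 0.25 (SE 0.043, adjusted p = 0.00016), so that copy minus parent was 0.43 (SE 0.13) for YBX1P1 and 0.40 (SE 0.14) for YBX1P10. Here and below, the SE of copy minus parent treats the genes as independent, although both were counted in the same libraries. As a percentage of the counts of YBX1, YBX1P1 stood at 0.583, 0.496 and 0.638 in si‐NC and at 0.824, 0.791 and 0.714 in si‐SRSF11. The ratio of YBX1P10 to YBX1 did not overlap either, and for each pair the exact two-sided permutation test gave p = 0.1, the smallest that 3 against 3 libraries allow.

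HSPD1P1 (plus strand of chromosome 5, 21882585 to 21884310) had 82, 98 and 95 counts in si‐NC and 140, 181 and 137 in si‐SRSF11. Here too the groups did not overlap, with a log2 fold change of 0.65 (SE 0.14, adjusted p = 0.0019), while HSPD1 itself rose by 0.47 (SE 0.042, adjusted p = 4.7e-08). The ratio of copy to parent overlapped between the groups, at 0.885%, 1.04% and 0.985% of HSPD1 counts in si‐NC and 1.03%, 1.31% and 0.961% in si‐SRSF11. AC044787.1, whose best match at 96.1% identity is the large subunit gene RPL7A, had 58, 83 and 69 counts against 123, 119 and 118, with a log2 fold change of 0.69 (SE 0.16, adjusted p = 0.0023).

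Falls were fewer, and 5 met the same limits. RPL7P50 (chromosome 19, 6593329 to 6594055, plus strand) lies in an intron of CD70 on the opposite strand. It had 63, 59 and 56 counts in si‐NC and 51, 27 and 44 in si‐SRSF11, all below the si‐NC libraries. It fell by 0.63 on the log2 scale (SE 0.23, adjusted p = 0.048, edgeR's quasi-likelihood test), a call lost in 6 of 12 alternatives. No source used here says that reads were counted by strand. CD70 fell by 0.54 as well, and the part of CD70 transcripts in the count was not tested. The parent RPL7 had a log2 fold change of 0.12 and the copy RPL7P9 -0.07, neither past the test.

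AC018638.2 had no match among protein-coding transcripts. Its counts were 171, 187 and 199 in si‐NC and 164, 130 and 142 in si‐SRSF11, without overlap, and it fell by 0.44 (SE 0.12, adjusted p = 0.01), a call lost without si‐SRSF11 replicate 2. EEF1B2P3, a copy of an elongation factor subunit gene, had 309, 298 and 327 counts against 263, 285 and 280. It fell by 0.26 (SE 0.089, adjusted p = 0.033), and its parent EEF1B2 fell by 0.16. The call on EEF1B2P3 was lost in 6 of 12 alternatives.

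The largest falls by size were those of pseudogenes that passed the count rule only through si‐NC. FAHD2P1, which overlaps an exon of PTPRR on the opposite strand, had 34, 33 and 47 counts in si‐NC and 10, 11 and 25 in si‐SRSF11, with a log2 fold change of -1.39 (adjusted p = 0.0031). AC124944.2 best matches PPP4R2 and lies in an intron of AC124944.3, which had a log2 fold change of -0.74 and was called lower as well. It had 57, 69 and 51 counts against 25, 28 and 25, and a log2 fold change of -1.27 (adjusted p = 0.00031). AC100821.1, which best matches ESF1, had 40, 56 and 34 counts against 21, 18 and 18, with a log2 fold change of -1.27. These 3 were the only called members whose change exceeded 1 on the log2 scale.

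RPSA had the most expressed copies of any parent, 5, and they did not move alike. RPSAP58 (plus strand of chromosome 19, 23827162 to 23828049) had 1306, 1036 and 1150 counts in si‐NC and 882, 1042 and 1054 in si‐SRSF11. Its CPM went from 77.3 ± 11.4 to 61.7 ± 4.61 (SD, n = 3 each), without overlap. Of its bases 2.36% overlap an exon of AC139769.2. It fell by 0.32 (SE 0.078, adjusted p = 0.0039, edgeR's quasi-likelihood test), a call lost without si‐NC replicate 1, the highest si‐NC library, where the log2 fold change was -0.20.

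RPSAP15 (chromosome X, 87703343 to 87704203, minus strand) had 1433, 1673 and 1597 counts in si‐NC and 1903, 2032 and 1984 in si‐SRSF11. All si‐SRSF11 libraries lay above all si‐NC libraries, with a log2 fold change of 0.24 (SE 0.050, adjusted p = 0.0011). RPSAP47 had 251, 307 and 445 counts against 600, 469 and 477. Its groups did not overlap in CPM, though si‐NC replicate 3 came close to si‐SRSF11 replicates 2 and 3, and the log2 fold change was 0.54 (SE 0.13, adjusted p = 0.0039). RPSAP19 and RPSAP12 overlapped between the groups, with log2 fold changes of 0.11 and 0.28 that did not pass the test.

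RPSA had 28814, 29407 and 30631 counts in si‐NC and 32333, 33479 and 36732 in si‐SRSF11, with a log2 fold change of 0.12 (SE 0.042, adjusted p = 0.048). Relative to RPSA, RPSAP58 made up 4.53%, 3.52% and 3.75% of the parent's counts in si‐NC and 2.73%, 3.11% and 2.87% in si‐SRSF11. These ratios did not overlap (p = 0.1 by exact two-sided permutation, the lowest that the design allows), and the copy minus the parent was -0.44 on the log2 scale (SE 0.089). RPSAP58 was the copy most like RPSA, at 99.5% identity with 51.3% of its 100-nt windows found in RPSA transcripts, whereas RPSAP15 had 98.1% and 14.3%, and RPSAP47 had 96.8% and 4.56%. A read of 150 bp is longer than such a window, so these shares do not measure the reads that fit both genes. The part of shared reads in these counts was not tested. Of the 154 pairs this was the only one in which copy and parent were both called and in opposite directions.

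**Figure D1:**
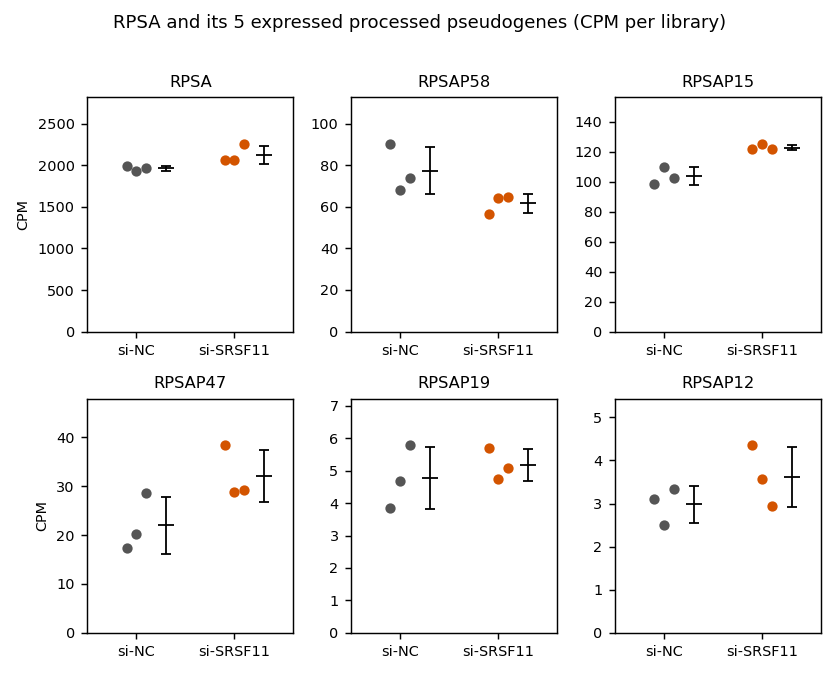
CPM per library (vertical axes, from 0) of RPSA and its 5 expressed processed pseudogenes in si‐NC (grey) and si‐SRSF11 (orange), with the mean and SD of the 3 libraries as black bars. RPSAP58 is lower in si‐SRSF11, RPSAP15, RPSAP47 and RPSA are higher, and the groups overlap for RPSAP19 and RPSAP12.

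Other parents with several copies gave other pictures. FTH1, the heavy chain of the iron store ferritin, fell by 0.29 (SE 0.053, adjusted p = 0.00029), and none of its 4 copies passed the test: FTH1P7, FTH1P8, FTH1P2 and FTH1P23 had log2 fold changes of 0.12, -0.11, 0.03 and 0.14. FTH1P7 made up 0.372%, 0.369% and 0.319% of FTH1 counts in si‐NC and 0.483%, 0.480% and 0.444% in si‐SRSF11, without overlap. FTL, the light chain, fell by 0.22, and its copy FTLP3 had a log2 fold change of -0.59 that did not pass the test (adjusted p = 0.11). HMGB1, a high mobility group protein that bends DNA, rose by 0.19, and of its 3 copies HMGB1P6 (0.20) and HMGB1P1 (0.85) rose, the first with overlapping groups and a call lost in 6 of 12 alternatives. HMGB1P1 passed the count rule only through si‐SRSF11, so its difference is partly fixed by the choice. The third, HMGB1P10, had 54, 39 and 46 counts in si‐NC and 32, 33 and 51 in si‐SRSF11, which overlapped, and a log2 fold change of -0.35 that did not pass the test (adjusted p = 0.31).

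Across the 124 parents, 36 (29%) rose, 12 (9.68%) fell and 76 did not pass the test, beside 13.2% and 11.4% of all tested genes and 15.3% and 13.1% under the count rule of the copies. Without si‐NC replicate 1 the parents had 23 rises and 7 falls. Their median log2 fold change was 0.07, with a range from -0.53 to 0.85. In 15 of the 154 pairs both copy and parent rose, and in 2 both fell. A copy rose beside a parent that was not called in 12 pairs, and a parent rose beside a copy that was not called in 33. In 76 pairs neither was called, in 13 only the parent fell, and in 2 only the copy fell. A call in one and none in the other does not show that they differ, and the SE of a copy was 0.18 at the median. The log2 fold change of the copy exceeded that of the parent in 90 of 154 pairs, with a median difference of 0.09, which was 0.03 without si‐SRSF11 replicate 1 and 0.04 without si‐SRSF11 replicate 2.

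The ratio of copy to parent within a library does not depend on scaling. Of the 154 pairs, 26 had ratios that were all higher in si‐SRSF11 than in si‐NC and 17 had ratios that were all lower. The exact permutation test cannot pass 0.05 with 3 against 3 libraries, and no other gene pairs were measured the same way.

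Among pairs with at least 100 counts on average in both, the largest differences from the parent included RPS3AP26, RPS20P14 and RPL7AP6, copies of ribosomal protein genes. RPS20P14 had 147, 173 and 203 counts in si‐NC and 253, 260 and 306 in si‐SRSF11, without overlap, and a log2 fold change of 0.56 (SE 0.11, adjusted p = 0.00083) beside 0.11 for RPS20. None of its 100-nt windows occurred in another annotated transcript. RPS3AP26 rose by 0.49 beside -0.02 for RPS3A, and the call was lost without si‐NC replicate 1 or si‐SRSF11 replicate 1. RPL7AP6 rose by 0.60 beside 0.14 for RPL7A, with ratios that overlapped between the groups.

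MFSD1P1 and its parent MFSD1, which encodes a lysosomal transporter, had log2 fold changes of opposite sign. MFSD1P1 had 120, 137 and 156 counts in si‐NC and 122, 97 and 131 in si‐SRSF11, with a log2 fold change of -0.33 that did not pass the test (adjusted p = 0.097), while MFSD1 rose by 0.21 (adjusted p = 0.013). Its counts were between 19.7% and 24.7% of the parent's in si‐NC and between 12.0% and 16.8% in si‐SRSF11, without overlap, and copy minus parent was -0.54 (SE 0.15). COX6A1P2 and SPCS2P4 differed from their parents by 0.47 and -0.47, with ratios that overlapped. SPCS2P4 had 215 counts in si‐NC replicate 3 and 63 to 103 in the other 5 libraries.

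Members of the remaining families moved as follows. PPP1R14BP3, a copy of the gene for a phosphatase inhibitor, had 241, 331 and 337 counts in si‐NC and 403, 559 and 498 in si‐SRSF11, and rose by 0.59 (SE 0.11, adjusted p = 0.00029) beside 0.23 for PPP1R14B. EIF3FP3 had 190, 218 and 220 counts against 309, 298 and 334, and rose by 0.49 (SE 0.096, adjusted p = 0.00061) beside 0.13 for the initiation factor subunit gene EIF3F, which did not pass the test. In both copies the si‐SRSF11 libraries were all above the si‐NC libraries. TLK2P1, a copy of a chromatin kinase gene, had 28, 26 and 28 counts against 78, 59 and 33, with a log2 fold change of 0.96 (adjusted p = 0.014) that lost its call without si‐NC replicate 2 or si‐SRSF11 replicate 1. It passed the count rule only through si‐SRSF11, so its difference is partly fixed by the choice.

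Values that did not pass the test in those families were 0.53 for PPIAP22, a cyclophilin A copy (adjusted p = 0.068), 0.49 for the profilin copy PFN1P1 (0.18), 0.49 for the respiratory complex III copy UQCRFS1P1 (0.053), 0.29 for GAPDHP1 (0.10), -0.26 for the dihydrofolate reductase copy DHFRP1 (0.052), -0.05 for the thymosin copy TMSB4XP8 (0.75), -0.37 for UBE2V1P2 (0.25), 0.40 for PSMC1P1 (0.28) and -0.16 for RAB43P1 (0.68), as log2 fold changes with the adjusted p in brackets. Their parents PPIA, PFN1 and UQCRFS1 rose, and TMSB4X and UBE2V1 fell.

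Copies were far less counted than their parents. The counts of a copy were 2.32% of its parent's at the median, from 0.0715% for FTLP3 to 151% for BNIP3P11, and only BNIP3P11 and EIF4A1P10 exceeded the parent. Those parents had few counts themselves, 12 to 39 per library for BNIP3 and 71 to 99 for EIF4A1, and why they were low was not tested. Per kilobase of gene model the median was 12.2%. Of the 224, 214 had a single exon, and the median length was 673.5 nt. Over the 154 pairs, the longest open reading frame of the copy reached at least 90% of the parent's codons in 60 and less than 50% in 63.

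Identity to the parent ranged from 77.6% to 100%, with a median of 98.3%. Among 16 pairs under 95%, 1 copy (6.2%) rose and 3 (18.8%) fell. The median log2 fold change was -0.27 and the median difference from the parent -0.40. In the 48 pairs from 95% to under 98%, 12 (25.0%) rose and 0 fell by edgeR. Among these 48 there was 1 fall at an unadjusted p under 0.05 and 0 by DESeq2, which called 7 rises. The medians were 0.25 and 0.19. The 89 pairs at 98% or more had 14 rises (15.7%) and 2 falls (2.25%), with medians of 0.10 and 0.06. Of all tested genes, 13.2% rose and 11.4% fell. These classes were not tested against each other. The copies under 95% that fell were RPL7P50, SLC35E1P1 and DUSP8P5, and the one that rose was PTMAP4.

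Windows of 100 nt shared with other annotated transcripts were a second measure of likeness. In the 33 pseudogenes with no shared window 4 (12.1%) rose and 5 (15.2%) fell, near the 13.2% and 11.4% of all tested genes, with -0.05 as the median log2 fold change. In the 34 with over 0% but under 10% of windows shared, 11 (32.4%) rose and 0 fell by edgeR. Among these 34 there were 3 falls at an unadjusted p under 0.05 and 0 by DESeq2, which called 8 rises. Of the 94 with 10% to under 50%, 17 (18.1%) rose and 3 (3.19%) fell, and of the 60 with 50% or more, 7 (11.7%) rose and 2 (3.33%) fell. These classes were not tested against each other. Of the rises described above, RPS20P14, YBX1P10, HSPD1P1 and RPS7P10 had 0%, 1.26%, 5.16% and 8.73% of their windows in other transcripts. Other rises described above shared more, such as AL450405.1 with 43.7% and RPL7P1 with 55.2%.

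Over their whole length, 15 pseudogenes were identical to a protein-coding transcript, so that no read inside them can tell them from that transcript. FABP5P7, a copy of the fatty acid binding protein gene FABP5, had 87, 109 and 90 counts in si‐NC and 118, 136 and 144 in si‐SRSF11, without overlap. It rose by 0.39 (SE 0.14, adjusted p = 0.049), and FABP5 by 0.37. RPS28P7 had 51.3% of the counts of RPS28, and its CPM was 300.0 ± 15.5 without and 299.8 ± 39.6 with knockdown (SD, n = 3 each). The values of these 15 are uncertain, since how reads fitting several places were assigned is not given in the sources used here. Of the 15, 3 rose and 0 fell by edgeR, with 1 fall at an unadjusted p under 0.05 and 0 by DESeq2. DESeq2 called 1 rise.

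By position, 114 pseudogenes lay inside an intron of another gene, 77 on the opposite strand and 37 on the same strand, 91 overlapped no other gene and 19 overlapped an exon of another gene. Inside introns 23 (20.2%) rose and 6 (5.26%) fell, and away from other genes 15 (16.5%) rose and 1 (1.1%) fell. Over exons 2 (10.5%) rose and 3 (15.8%) fell. These placements were not tested against each other. For the 69 with a tested intron host, 8 hosts were called higher, 10 lower and 51 not called. Of all tested genes, 13.2% were called higher and 11.4% lower. The host of RPL18AP3, TXNRD1, fell by 0.47, while RPL18AP3 had a log2 fold change of -0.13 that did not pass the test. The host of RPS3AP26, BAIAP2L1, fell by 0.17, although RPS3AP26 rose. RNA from the hosts could not be separated from that of the pseudogenes in these counts, and its part was not tested.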

How the data were processed

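Poly(A) RNA libraries of LoVo cells (NEBNext Ultra kit, NovaSeq, 150 bp pairs) were assigned to si‐NC or si‐SRSF11 by the deposited labels. The deposited table holds raw whole-number counts of reads on each gene, made by the authors with no normalization or filter on low values. The build is hg38, and the identifiers and coordinates of all 58735 genes match GENCODE 29 (Ensembl 94). The aligner, the counting program and the use of strand are not given in the sources used here.

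The 15801 genes that reached 10 counts in 3 or more libraries were scaled by TMM and tested with edgeR 4.0.16 (glmQLFit, glmQLFTest, R 4.3.3), with Benjamini-Hochberg adjustment over all of them. Standard errors come from the F statistic. The SE of copy minus parent combines those of copy and parent as if independent, and so ignores that they share libraries. Ratios to the parent were compared with an exact two-sided permutation test, whose smallest p is 0.1. Copies were matched to transcripts with BLAST 2.17.0. Alternatives were DESeq2 1.42.0, other scalings, filters and member rules, a block on replicate number, and fits that leave out 1 library. The code was tested on simulated data.

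Members and lists were chosen with earlier results of these data known. Named members are the 10 with the highest CPM, the 8 largest rises and up to 8 largest falls with an adjusted p under 0.05, no overlap and a mean of at least 50 counts, the 2 with the smallest adjusted p per family of at least 3, the 6 pairs with the largest differences and at least 100 counts in both, and the pseudogenes next to the threshold. Other names, such as further copies of the same parent or those that complete a small count, were chosen after their values were seen. Splicing and other assays were not analysed here.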

Additional observations from a re-analysis of the deposited data

How the results depend on the processing

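Low counts limit single copies. Counts of rises and falls were 25 and 6 by DESeq2, which gave all 224 an adjusted p, and each of these calls was also made by edgeR. Leaving out 1 library gave 22 to 38 rises and 5 to 14 falls among pseudogenes, 23 to 45 rises and 7 to 16 falls among parents, a median log2 fold change of 0.09 to 0.13 and a median difference from the parent of 0.03 to 0.10, the lowest counts of rises without si‐NC replicate 1. The median was 0.08 with scaling by library size and 0.11 by upper quartile. With 30 counts required in all 6 libraries, 35 of 172 members rose and 4 fell, with a median of 0.13. With 100 counts in 3 libraries, 29 rose and 4 fell, with a median of 0.14. Pairs with under 10% of windows in the parent had a median difference of 0.14. An alternative chosen after seeing the data kept members with under 10% of windows in other transcripts, 33 with none and 34 with some. This left 15 rises, 5 falls and a median of 0.14. The study speaks of 3 pairs of RNA samples, and the labels do not say whether equal replicate numbers mark a pair. Deviations of same-numbered libraries correlated at -0.015, 0.097 and 0.133, which cannot settle whether they were paired. With a replicate block 40 rose and 11 fell.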
